A study of Mus musculus with 10 samples.

Results

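The insulin-like growth factor axis was followed through 10 genes in the dentate gyrus of mice aged 4 to 12 weeks. The genes were the ligand gene Igf1, the receptor genes Igf1r and Insr, the adaptor genes Irs1 and Irs2, and the binding protein genes Igfbp2, Igfbp3, Igfbp4, Igfbp5 and Igfbp6. They were chosen by name, as probe sets that the platform annotation assigns to a single gene, and for Insr, which had 2 such probe sets, the brighter was used. All 10 were found among 19752 measured genes. Whole-transcript Affymetrix arrays measured total RNA from both dentate gyri, in mice given as strain C56BL/6J, in 5 age groups of 4, 6, 8, 10 and 12 weeks with 2 arrays each; no treatment was applied, and no allele or transgene is named. Levels are the deposited values, taken as log2 expression, so a difference of 1 is a doubling. Whether the 2 arrays of each age hold different animals is not stated, so the p-values reflect array-to-array spread that may be technical.

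In this pathway Igf1 binds the type 1 receptor encoded by Igf1r, a receptor tyrosine kinase that is closely related to the insulin receptor encoded by Insr. Both receptors phosphorylate the docking proteins Irs1 and Irs2, which recruit phosphoinositide 3-kinase and so activate Akt and its targets. Secreted binding proteins hold most of the extracellular ligand, limit its access to receptors and release it when proteases cut them. In the hippocampus the pathway is known for promoting the growth, survival and differentiation of newborn granule neurons, and several binding proteins are made by blood vessels, meninges and glia.

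The tissue label was checked first. Prox1, which encodes the transcription factor that defines granule cells, lay between 12.15 and 12.38 on all arrays, and C1ql2, a synaptic protein gene of mossy fibres, between 11.43 and 11.74. The array of 6 weeks replicate 1 stood apart: Ttr, the transthyretin gene of choroid plexus, was at 13.77 there, against 8.87 to 10.15 on the other 9 arrays. The array of 8 weeks replicate 1 had the narrowest distribution of levels (SD 2.12). The labels give the sex as female, but Xist, which is transcribed from the inactive X, lay at 5.41 to 6.02, and the Y-linked gene Kdm5d between 8.89 and 9.20. The Y-linked genes Eif2s3y and Uty lay between 8.59 and 9.16 and between 9.10 and 9.34. On every array these levels go against the label. As a guide to dim signal, the 95th percentile of olfactory, vomeronasal and trace amine receptor genes averaged 7.01, and each of the 10 genes of the axis had a mean above it. In bulk tissue, fewer cells of a type and less RNA per cell cannot be told apart.

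Igfbp2 and Igfbp5 are neighbours on chromosome 1 (assembly GRCm38.p6), at 72824480 to 72852474 and at 72858065 to 72874865, with 5590 bases between them and opposite strands. Their start regions are shown because these neighbours gave the widest and one of the narrowest ranges of level in the axis. Each window runs from 250 bases before to 50 after the annotated start, 5′ to 3′ on the gene's own strand, from RefSeq. Capitals mark a GC box (GGGCGG) or a TATA box (TATAAA) on either strand. Igfbp2 also has a second annotated start, not printed.
Igfbp2, chr1:72824230-72824529, plus strand: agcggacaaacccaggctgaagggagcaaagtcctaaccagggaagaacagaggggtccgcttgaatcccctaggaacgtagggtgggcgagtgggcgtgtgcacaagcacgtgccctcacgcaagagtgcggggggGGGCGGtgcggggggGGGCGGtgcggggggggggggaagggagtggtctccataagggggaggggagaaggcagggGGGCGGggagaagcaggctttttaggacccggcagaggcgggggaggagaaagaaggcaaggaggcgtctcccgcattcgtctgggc
Igfbp5, chr1:72874816-72875115, minus strand: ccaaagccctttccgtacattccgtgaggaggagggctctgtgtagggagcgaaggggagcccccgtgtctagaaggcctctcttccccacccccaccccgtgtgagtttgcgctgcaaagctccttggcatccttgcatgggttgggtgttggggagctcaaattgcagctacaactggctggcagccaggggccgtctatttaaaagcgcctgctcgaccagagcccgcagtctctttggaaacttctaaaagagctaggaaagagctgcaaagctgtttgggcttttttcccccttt
The Igfbp2 window held 3 GC boxes, and the Igfbp5 window held neither motif. Of the 10 genes, 9 had a window (10 windows in all), and Insr had no entry. A GC box was found in the windows of Igfbp2, Irs1, Igf1r and Irs2, and a TATA box in those of Igfbp4 and Igfbp6. Among all 32851 windows of the table, 35.7% held the GC box and 13.6% the TATA box. Such matches describe letters only.

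No gene of the axis passed a test over age. None of the 10 genes had a linear trend over age at an adjusted p under 0.05 in limma, where 0.820% of all 19752 genes did (0.673% lower and 0.147% higher with age). At an unadjusted p under 0.05 there were 2, Igfbp4 (lower with age) and Igf1r (higher with age), or 2 of 10 against 11.7% of all genes. The median change of the 10 genes from 4 to 12 weeks was -0.04 on the log2 scale, with 6 negative and 4 positive, beside a median of 0.0034 over all genes. The 95% intervals of the fitted changes, which are not adjusted for the number of genes, reached at most a fall of 1.46-fold (Igfbp4) and a rise of 1.34-fold (Igfbp6). In no gene did the age means rise at every step or fall at every step.

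**Figure D1:**
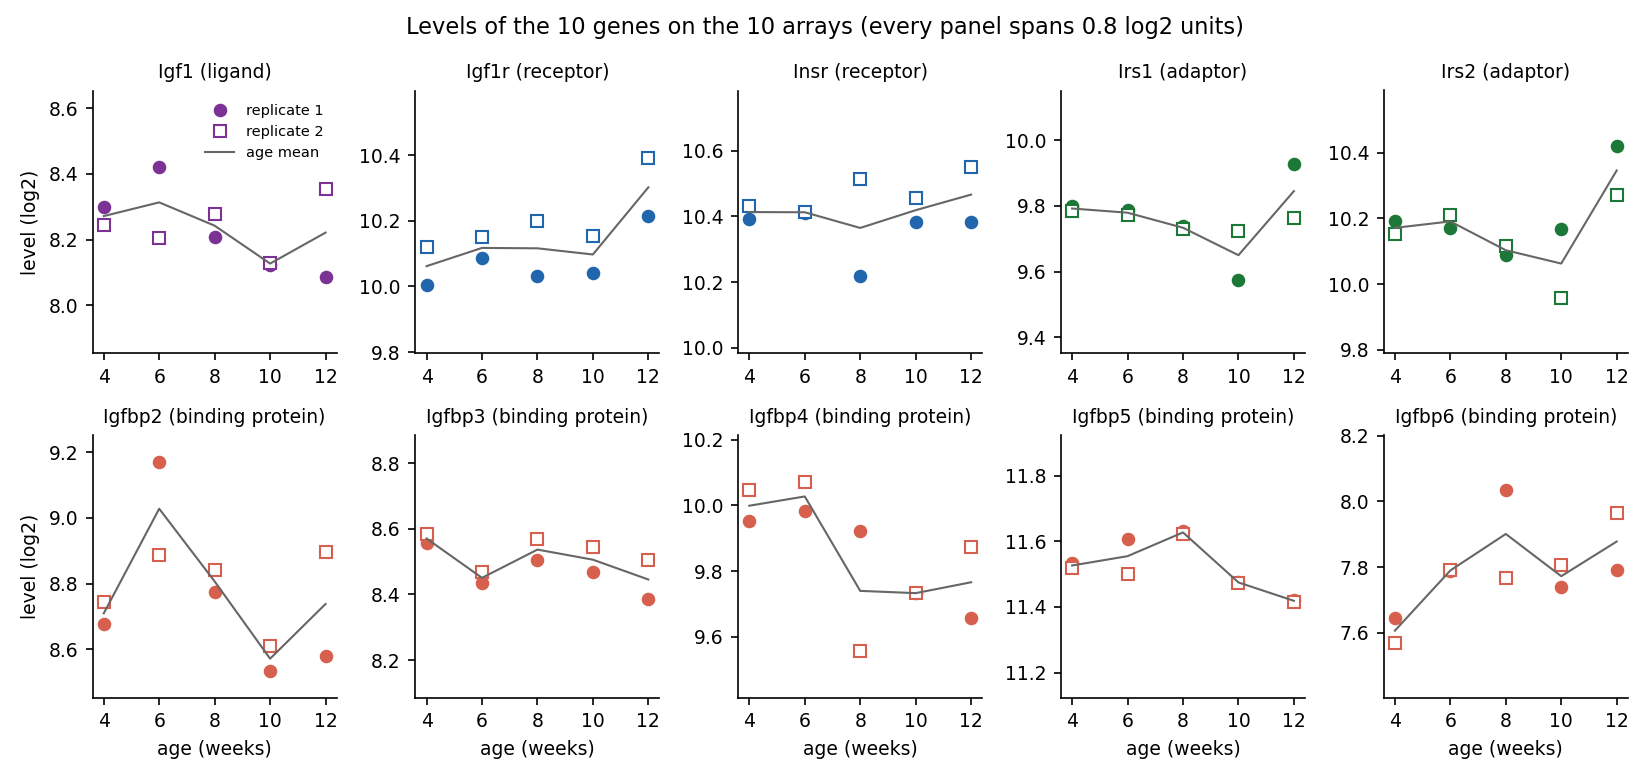
Level (log2) of each gene on each array against age in weeks, with replicate 1 as filled circles, replicate 2 as open squares and the age mean as a line; every panel spans the same height. Igfbp2 peaks on the array of 6 weeks replicate 1 at 9.17, Igfbp4 stands at or above 9.95 on the 4-week arrays and between 9.66 and 9.87 at 12 weeks, and Igfbp5 has its lowest pair at 12 weeks.

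The ligand gene Igf1 encodes insulin-like growth factor 1, a secreted mitogen and survival factor (chromosome 10, 87858265 to 87937047). Its levels were 8.30 and 8.24 at 4 weeks, 8.42 and 8.21 at 6 weeks, 8.21 and 8.28 at 8 weeks, 8.12 and 8.13 at 10 weeks, and 8.09 and 8.36 at 12 weeks (log2, replicate 1 and then replicate 2). The 12-week pair spanned the 4-week pair, and the highest array was 6 weeks replicate 1. The fitted change over the series was -0.11 ± 0.09 (SE, 95% interval -0.31 to 0.08, adjusted p = 0.70). Leaving out 12 weeks replicate 1 gave -0.06, leaving out replicate 2 of that age gave -0.22, and leaving out both gave -0.20.

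Igf1r, the type 1 receptor gene (chromosome 7, 67952257 to 68233668), had levels of 10.00 and 10.12 at 4 weeks, 10.09 and 10.15 at 6 weeks, 10.03 and 10.20 at 8 weeks, 10.04 and 10.16 at 10 weeks, and 10.21 and 10.39 at 12 weeks. Both 12-week arrays lay above the other 8, and the 4 younger ages had means between 10.06 and 10.12, which differ by less than the pooled SD within ages of 0.10. The fitted change was 0.18 ± 0.08 (SE, 95% interval 0.0022 to 0.37), or 1.14-fold, with an unadjusted p of 0.048 that did not pass the adjustment over all genes (0.42). Between 12 and 4 weeks the difference was 0.24 ± 0.09 (SE, adjusted p = 0.43). Without 12 weeks replicate 2 the fitted change was 0.09 (adjusted p = 0.75), and without both 12-week arrays it was 0.04 (adjusted p = 0.88).

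Insr, the insulin receptor gene (chromosome 8, 3150922 to 3279649), ranged from 10.22 to 10.55. Its replicates were farthest apart at 8 weeks, at 10.22 and 10.51. Its change was 0.04 ± 0.08 (SE, 95% interval -0.13 to 0.22, adjusted p = 0.90). The other probe set of Insr had a least-squares change of 0.04 as well. The means of all 5 ages lay within 0.10 of each other, less than the pooled SD within ages of 0.11.

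Neither adaptor gene passed the trend test. Irs2, which encodes a docking protein of both receptors (chromosome 8, 10984681 to 11008929), had levels of 10.19 and 10.15 at 4 weeks, 10.17 and 10.21 at 6 weeks, 10.09 and 10.12 at 8 weeks, 10.17 and 9.96 at 10 weeks, and 10.42 and 10.27 at 12 weeks. Both 12-week arrays were above the other 8, and 10 weeks replicate 2 was the lowest. Its fitted change was 0.09 ± 0.10 (SE, 95% interval -0.13 to 0.31, adjusted p = 0.81), and the difference of 12 from 4 weeks was 0.17 ± 0.09 (SE, adjusted p = 0.58). Without the 12-week arrays its fitted change was -0.17 (adjusted p = 0.52). Irs1, the other docking protein gene (chromosome 1, 82233105 to 82291439), had levels of 9.80 and 9.78 at 4 weeks, 9.79 and 9.77 at 6 weeks, 9.74 and 9.73 at 8 weeks, 9.58 and 9.72 at 10 weeks, and 9.93 and 9.76 at 12 weeks. The 12-week pair overlapped the 4-week pair, and the change over the series was -0.01 ± 0.08 (SE, 95% interval -0.19 to 0.17, adjusted p = 0.98), a sign that turned positive with quantile normalization (0.03) and with median centring (0.0067).

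Among the binding proteins Igfbp4 had the largest fitted change. It encodes a carrier that mostly restrains its ligand until the protease Pappa cuts it (chromosome 11, 99040005 to 99052655). Its levels were 9.95 and 10.05 at 4 weeks, 9.98 and 10.07 at 6 weeks, 9.92 and 9.56 at 8 weeks, 9.73 and 9.73 at 10 weeks, and 9.66 and 9.87 at 12 weeks. Both 10-week and both 12-week arrays lay below the 4-week and 6-week arrays, and the 8-week arrays were split, with replicate 2 the lowest of all 10 and replicate 1 near the younger ages. The fitted change was -0.30 ± 0.11 (SE, 95% interval -0.55 to -0.06), or 1.23-fold lower, with an unadjusted p of 0.018 and an adjusted p of 0.28. Over the 20 alternative fits its change ranged from -0.43 to -0.27 and its adjusted p from 0.14 to 0.51.

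Igfbp6, whose product binds the second ligand Igf2 more tightly than Igf1 (chromosome 15, 102144186 to 102149512), had a fitted change of the opposite sign. Its levels were 7.64 and 7.57 at 4 weeks, 7.79 and 7.79 at 6 weeks, 8.04 and 7.77 at 8 weeks, 7.74 and 7.81 at 10 weeks, and 7.79 and 7.96 at 12 weeks. Both 12-week arrays, at 7.79 and 7.96, lay above both 4-week arrays, at 7.64 and 7.57, and the highest array was 8 weeks replicate 1. The fitted change was 0.21 ± 0.10 (SE, 95% interval -0.0012 to 0.42, adjusted p = 0.43), and the difference of 12 from 4 weeks was 0.27 ± 0.10 (SE, adjusted p = 0.40), or 1.21-fold. Of the 20 alternative fits, 6 leave the slope of these genes as it is by construction, among them those without an array of 8 weeks, the mean age. In the 14 others, quantile normalization and median centring included, the signs for Igfbp4 and Igfbp6 were those reported.

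Igfbp5, a carrier that binds heparin and matrix (chromosome 1), was the most reproducible. Its levels were 11.53 and 11.52 at 4 weeks, 11.61 and 11.50 at 6 weeks, 11.63 and 11.62 at 8 weeks, 11.48 and 11.47 at 10 weeks, and 11.42 and 11.41 at 12 weeks. Its pooled SD within ages was 0.03, against a median of 0.09 over all genes. By age mean the order was 11.63 at 8 weeks, 11.55 at 6 weeks, 11.53 at 4 weeks, 11.47 at 10 weeks and 11.42 at 12 weeks. The 8-week pair lay above the other 8 arrays and the 12-week pair below them, while the 6-week pair spanned the 4-week pair. The trend was -0.12 ± 0.07 (SE, 95% interval -0.27 to 0.03, adjusted p = 0.57), or -0.03 without the 12-week arrays, and the test for any difference between ages gave an unadjusted p of 0.073 and an adjusted p of 0.64.

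Igfbp3, the main carrier in serum (chromosome 11, 7206086 to 7215498), had the narrowest range of the axis, 8.39 to 8.58. Both 12-week arrays, at 8.39 and 8.50, lay below both 4-week arrays, at 8.56 and 8.58. The fitted change was -0.08 ± 0.06 (SE, 95% interval -0.21 to 0.06, adjusted p = 0.71). It was -0.03 without 12 weeks replicate 1, -0.04 without both 12-week arrays and -0.05 with quantile normalization.

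Igfbp2, the carrier of meninges, choroid plexus and immature astroglia (chromosome 1), had the widest range, from 8.53 to 9.17. Its levels were 8.68 and 8.74 at 4 weeks, 9.17 and 8.89 at 6 weeks, 8.77 and 8.84 at 8 weeks, 8.53 and 8.61 at 10 weeks, and 8.58 and 8.90 at 12 weeks. The 6-week arrays were high and the 10-week arrays low, and the replicates of 12 weeks were far apart. By age mean the order was 9.03 ± 0.20 at 6 weeks, 8.81 ± 0.05 at 8 weeks, 8.74 ± 0.22 at 12 weeks, 8.71 ± 0.05 at 4 weeks and 8.57 ± 0.05 at 10 weeks (SD, n = 2 each). The 12-week pair spanned the 4-week and the 8-week pair. The trend was -0.16 ± 0.15 (SE, 95% interval -0.48 to 0.16, adjusted p = 0.76), and without 6 weeks replicate 1 it was -0.08 ± 0.11 (SE, adjusted p = 0.92). Leaving out 12 weeks replicate 1 gave -0.10, and leaving out replicate 2 of that age gave -0.28. With 4 weeks replicate 1 left out it was -0.26, and with both 12-week arrays left out it was -0.25.

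**Figure D2:**
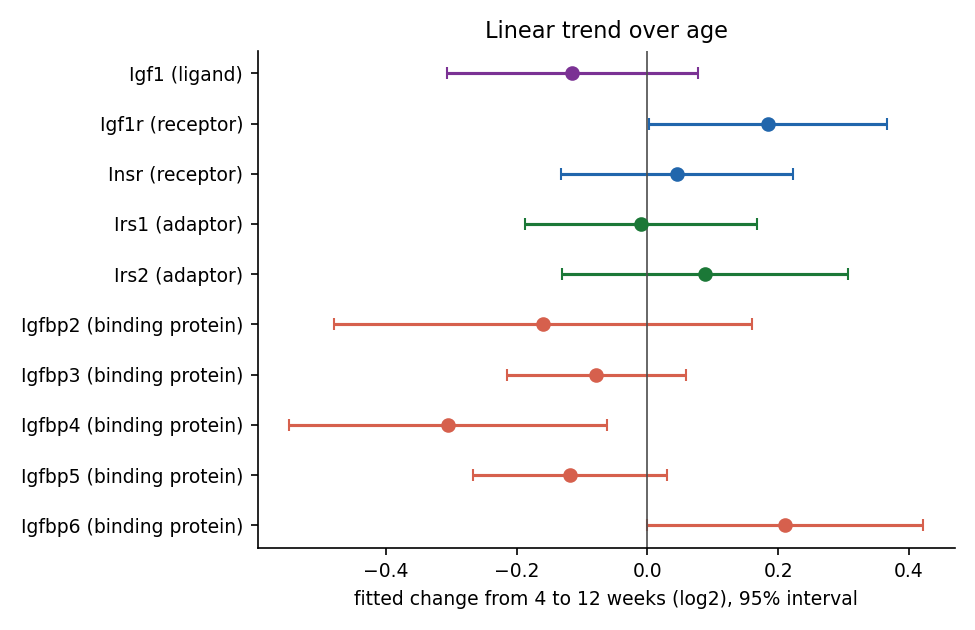
Fitted linear change from 4 to 12 weeks (log2, points) with its 95% interval (bars) for each gene, coloured by role. The intervals of Igfbp4 and Igf1r leave out 0 before adjustment, that of Igfbp6 just includes it at -0.0012, and Igfbp2 has the widest.

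Tests that do not assume a straight line also called none of the 10 genes. With age as a factor, none of the 10 genes differed between any ages at an adjusted p under 0.05 (limma F-test), where 0.167% of all genes did. Igfbp2 alone had an unadjusted p under 0.05 (adjusted p = 0.57), which 8.46% of all genes had. Without 6 weeks replicate 1 the adjusted p of Igfbp2 in this test was 0.90. Between 12 and 4 weeks none of the 10 passed, where 0.516% of all genes did, and 2 had an unadjusted p under 0.05, Igfbp6 and Igf1r, against 9.57% of all genes. The 12-week and 4-week arrays did not overlap for 6 of the 10 genes, against 43.7% of all genes. They were 3 with 12 weeks higher, Igf1r, Irs2 and Igfbp6 (21.6% of all genes), and 3 with 12 weeks lower, Igfbp3, Igfbp4 and Igfbp5 (22.2%).

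The array of 6 weeks replicate 1 was examined for binding proteins of vessels and meninges. Only Igfbp2 and Igf1 of the 10 genes had their highest level there, against 10.3% of all genes, and none had its lowest there, against 12.3%. Igfbp2 stood at 9.17 on this array, against 8.53 to 8.90 on the other 9, or 0.44 above their mean. It was 0.28 above the other 6-week array. Igf1 stood at 8.42, against 8.09 to 8.36, or 0.21 above the mean of the others. Igfbp4 and Igfbp5 stood 0.15 and 0.10 above the mean of the other arrays, each with 2 arrays above it, and Igfbp6 and Igfbp3 differed from it by -0.00094 and -0.08. Against the other 6-week array Igfbp4 differed by -0.09, Igfbp5 by 0.11, Igf1 by 0.21, Igfbp3 by -0.03 and Igfbp6 by -0.0023. A single array gives no test of these differences.

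Marker genes of the border tissues were also high on this array. Of 16 meningeal fibroblast genes 9 had their highest level there, and of 10 measured choroid plexus genes 9 did. The median gene of the meningeal list stood 0.31 above the mean of the other 9 arrays, and that of choroid plexus 0.97, beside 0.00090 over all genes. The medians of other lists were 0.19 for oligodendrocytes, 0.17 for neuroblasts, 0.13 for endothelium, 0.07 for mural cells and 0.07 for astrocytes. The other 9 arrays span all ages, and the median changes of oligodendrocytes and neuroblasts over age were -0.56 and -0.65. The oligodendrocyte list summed to 13.92 and the neuroblast list to 13.72 on the other 6-week array, against 13.83 and 13.86 on this array. Of 13 endothelial and 13 mural genes, 2 in each list had their highest level there, and 2 mural genes had their lowest. The astrocyte list, with 3 of 10 genes highest there, also had its highest sum on this array, at 15.06, against 14.93 to 15.04 on the other 9. The meningeal list summed to 13.22 (log2 of the summed linear levels) on this array, against 12.53 to 13.14 on the other 9. The choroid plexus list summed to 14.13, against 11.05 to 11.46. Of the meningeal genes Asgr1, and of the choroid plexus genes Clic6 and Kcne2, had means under the guide for dim signal. The part of these cells in the level of Igfbp2 was not tested.

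**Figure D3:**
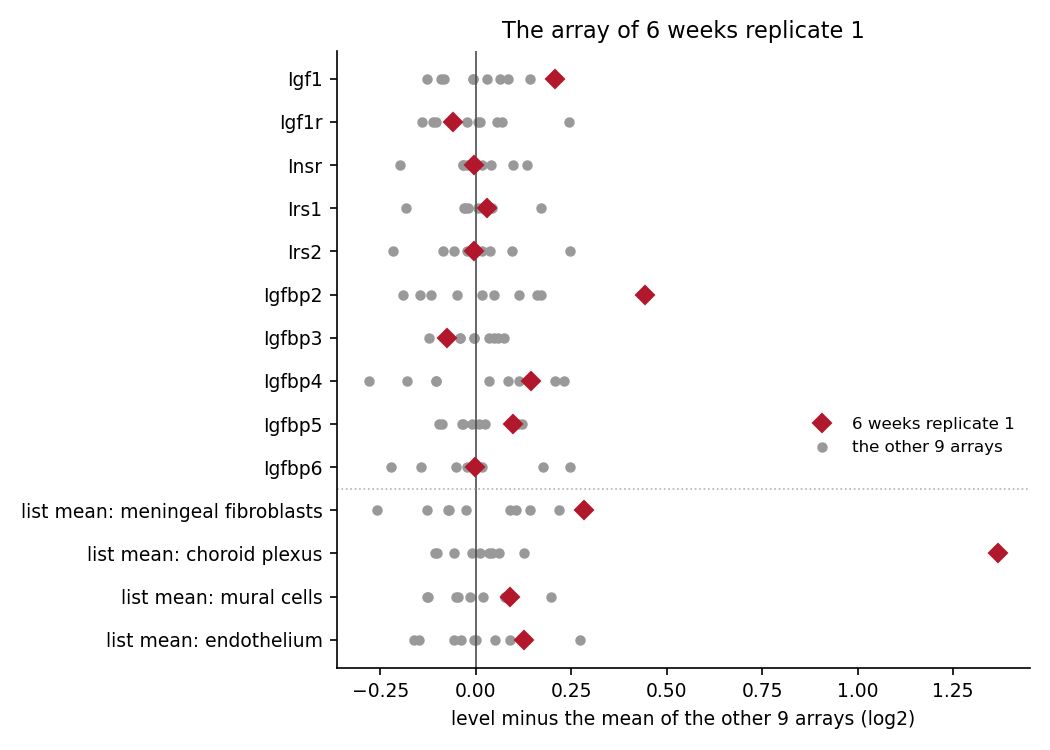
Level minus the mean of the other 9 arrays (log2) for each gene and for the mean of 4 marker lists, with 6 weeks replicate 1 as red diamonds and the other 9 arrays as grey circles. Igfbp2, at 0.44, and Igf1, at 0.21, lie to the right of the other arrays among the 10 genes, as do the meningeal and choroid plexus means among the lists.

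Igfbp2 also differed between the 12-week arrays. On 12 weeks replicate 2 Igfbp2 was 8.90, against 8.58 on replicate 1. The meningeal list summed to 13.14 and 12.80 on the same arrays, and the choroid plexus list to 11.46 and 11.18. The endothelial list summed to 12.94 and 12.67 there, and the mural list to 12.65 and 12.36. The microglial, granule cell and interneuron lists went the other way. The genes of most similar pattern over the 10 arrays were sought among 13713 named genes above the guide for dim signal, by the root mean square difference of standardised levels, which is 0 for the same pattern. Closest to Igfbp2 were Anpep, an aminopeptidase gene of pericytes that is also in the mural list (0.23), Serpind1, a thrombin inhibitor gene (0.25), and Igf2, the gene of the second ligand (0.25). Igf2 had levels of 9.73 and 9.96 at 4 weeks, 10.57 and 10.24 at 6 weeks, 10.04 and 10.11 at 8 weeks, 9.42 and 9.83 at 10 weeks, and 9.59 and 10.23 at 12 weeks. It was highest on 6 weeks replicate 1, lowest on 10 weeks replicate 1, and far apart between the 12-week replicates. Without 6 weeks replicate 1 these 3 genes were again the closest, at 0.21 for Serpind1, 0.26 for Igf2 and 0.27 for Anpep. Among the 14 lists, the mean level of the meningeal list was closest to Igfbp2 with this array (0.49) and without it (0.54). The choroid plexus mean differed by 0.70 with it and by 1.26 without it. The mural mean differed by 0.74 with it and 0.63 without it, and the endothelial mean by 0.75 and 0.68. The comparison with lists was added after the values were seen, and arrays share their tissue and its dissection.

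**Figure D4:**
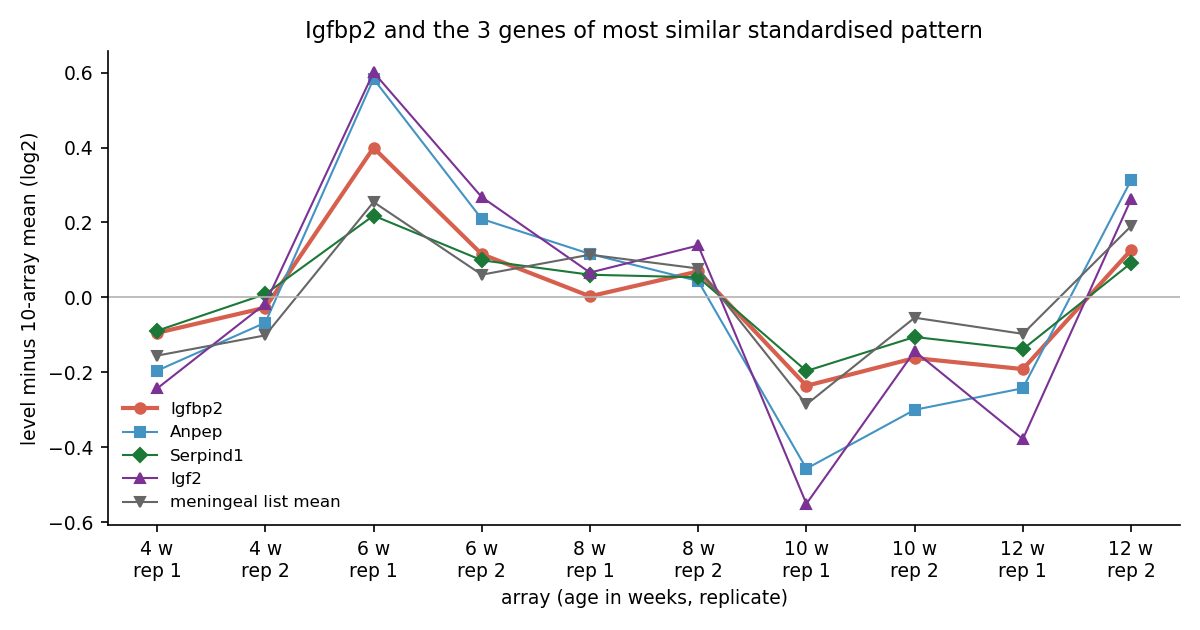
Level minus the mean over the 10 arrays (log2) of Igfbp2, Anpep, Serpind1, Igf2 and the mean of the meningeal list, by array in order of age; lines guide the eye only. All 5 peak on 6 weeks replicate 1, where Igf2 stood at 10.57, and all are lower on 12 weeks replicate 1 than on replicate 2.

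The matches of the other 3 members of largest SD over the 10 arrays, Igfbp4, Igfbp6 and Irs2, were found by the same measure. Closest to Igfbp6 were Ngfr, the p75 neurotrophin receptor gene (0.33), Emc10 (0.35) and Kctd6 (0.37). Closest to Igfbp4 were Prr11 (0.45), Plekhh1 (0.50) and Rexo2 (0.53). Closest to Irs2 were Polr3f (0.43), Sin3a (0.45) and Tube1 (0.50).

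The rest of the pathway was read from 2 lists, which were chosen with earlier results of these data known. The median change of 15 measured genes of other ligands, carriers and proteases was 0.03. At an adjusted p under 0.05 in the trend test, 0 rose (0.147% of all genes) and 2 fell with age (0.673% of all genes). The 2 were Igfbpl1, a binding protein-like gene of intermediate progenitors that belongs to the neurogenic genes, and Pappa2, a protease gene that cuts Igfbp5 and Igfbp3. Igfbpl1 changed by -1.35 ± 0.10 (SE, adjusted p = 8.4e-05), and it passed in all 20 alternative fits. Pappa2 stood at 6.75 and 6.92 at 12 weeks, against 7.48 and 7.57 at 4 weeks. Its change was -0.61 ± 0.09 (SE, adjusted p = 0.0087). The call was lost without either 4-week array or without the 12-week arrays. Over the 20 alternative fits the change of Pappa2 ranged from -0.65 to -0.53. Its 12-week values lay under the guide for dim signal, so the size of the fall is uncertain. Igf2 had a fitted change of -0.26 ± 0.26 (SE, adjusted p = 0.79), the insulin gene Ins2, dim throughout, one of 0.03 ± 0.11, and Igf2r, which clears Igf2 from outside the cell, one of 0.01 ± 0.08, none of which passed.

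Igfbp7, a matrix and vessel protein gene of low affinity for the ligand, was singled out after its values were seen. Its levels were 10.25 and 10.17 at 4 weeks, 10.73 and 10.38 at 6 weeks, 10.30 and 10.40 at 8 weeks, 10.22 and 10.21 at 10 weeks, and 11.02 and 10.86 at 12 weeks. The 12-week arrays were the highest and 6 weeks replicate 1 came next. The difference of 12 from 4 weeks was 0.73 ± 0.11 (SE, adjusted p = 0.032), or 1.66-fold, while the trend, 0.44 ± 0.20 (SE, adjusted p = 0.42), did not pass. The call was lost in 6 of 18 alternative fits, those without any one of the 4-week, 10-week or 12-week arrays. Over the 18 fits the difference ranged from 0.65 to 0.81. The levels on 6-week, 8-week and 10-week arrays do not enter this difference. Leaving one of them out changes only the spread that the difference is set against, so such fits do not check its size. On the 12-week arrays the endothelial list summed to 12.67 and 12.94, against 12.54 and 12.64 at 4 weeks. The sum was 12.81 and 12.74 at 6 weeks and 12.79 on 8 weeks replicate 2, above its value on 12 weeks replicate 1, where Igfbp7 was highest. Its brightest gene, Itm2a, differed by -0.07 between 12 and 4 weeks, and Kdr and Slco1a4 were also lower at 12 weeks. The other genes of the list were higher, most of all Vwf, Flt1 and Pecam1, by 0.55, 0.54 and 0.43. No gene of the list passed in this comparison. The part of endothelium in the level of Igfbp7 was not tested.

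Of 32 measured signalling genes downstream of the receptors, 0 passed the trend test in either direction. An unadjusted p under 0.05 was found for 4 of the 32, against 11.7% of all genes. Their median change was 0.0027, with 16 negative and 16 positive, and the range was -0.26 to 0.30. Irs4, a docking protein gene at the guide for dim signal, had a fitted change of 0.01 ± 0.10, Shc1, an adaptor gene of the Ras branch, one of 0.07 ± 0.10, and Grb2, the adaptor gene that links receptors to Ras, one of 0.03 ± 0.07 (SE).

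**Figure D5:**
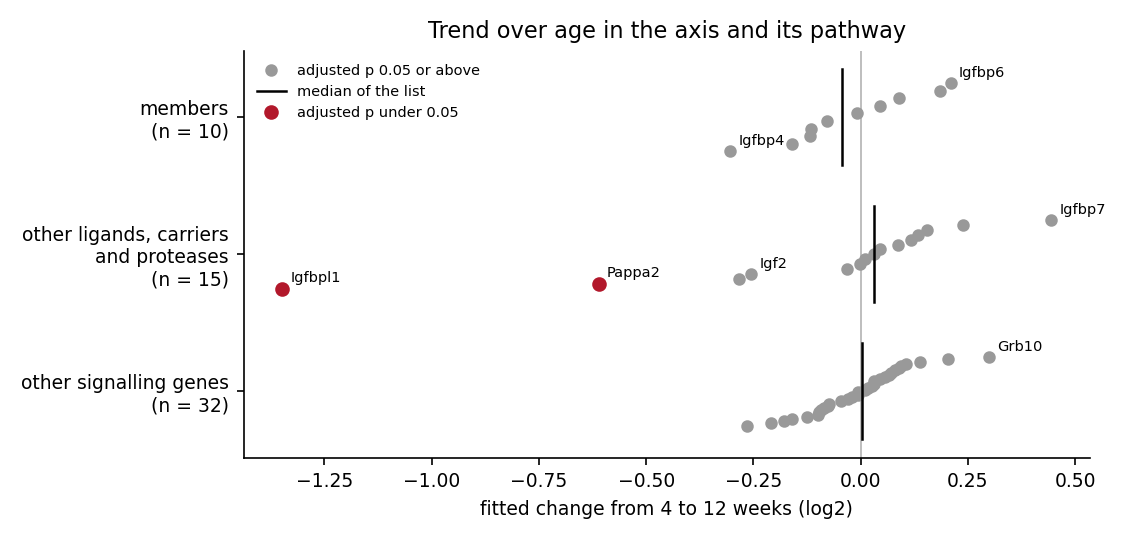
Fitted change from 4 to 12 weeks (log2) of each gene in the axis and in 2 lists of the pathway, sorted within each list, with the median as a black bar. Red points, Igfbpl1 at -1.35 and Pappa2 at -0.61, passed the adjusted threshold, and none of the 10 genes of the axis did.

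Cell types of the dentate gyrus gave a scale for these values. Of 10 neuroblast genes, Igfbpl1 among them, 5 fell with age and the median change was -0.65. Of 9 measured oligodendrocyte genes 5 fell, with a median of -0.56. Over all genes 0.673% fell at the same threshold. No gene of the endothelial, mural, meningeal, choroid plexus, ependymal, microglial, astrocyte, interneuron or pyramidal lists passed, and in the granule cell list 1 rose and 1 fell. The median changes of those 10 lists lay between -0.22 (choroid plexus) and 0.08 (endothelium).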

How the data were processed

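Total RNA of mouse dentate gyri was hybridised to whole-transcript arrays. The deposited values are taken as log2 expression per probe set, since they run from 2.50 to 15.0 with array medians between 8.27 and 8.31; the log base and the authors' normalization and software are not given in the sources used here, and only the build mm10 is named per the submitters' processing notes. Of 25254 probe sets, 21496 had 1 gene in the platform annotation, 1565 had several and 2193 none, which were left out, and the brightest probe set stood for each of 19752 genes. Coordinates come from a RefSeq table of GRCm38.p6. Arrays were grouped by the age in the sample titles.

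Tests used limma 3.58.1 in R 4.3.3, two-sided, with Benjamini-Hochberg adjustment over all genes and a threshold of 0.05: age in weeks as a number (trend), age as a factor (F-test), and 12 against 4 weeks. The script was tested on simulated data. Alternative fits added a replicate block, used quantile normalization or centring on the median, a filter on the dimmest 30% of genes, other variance models, array weights, the mean over probe sets, log2 of age, and leaving out arrays. Lists are described by counts and medians only. The genes, lists and rules were chosen with earlier results of these data known. Named besides the 10 genes are the first 3 measured genes of each pathway list, its called genes, and the 3 closest in pattern to each of the 4 members of largest SD; of the marker lists, mainly counts are given. With 2 arrays per age, the number of arrays limits the precision.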

Additional observations from a re-analysis of the deposited data

How the results depend on the processing

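None of the 10 genes passed the trend, the F-test or the comparison of 12 with 4 weeks in any alternative run. Of 200 trend values of these genes under 20 alternatives, 59 equal the reported value by construction (replicate block, filter on dim genes, variance model, an 8-week array left out, or a single probe set). Of the 141 others, 132 had the sign of the reported value. The 9 that did not were those of Insr without the 12-week arrays (-0.0124) and 12 weeks replicate 2, Irs2 without the 12-week arrays (-0.1656) and 12 weeks replicate 1, and Irs1 with quantile normalization (0.0335), median centring (0.0067), and without either 4-week array or 10 weeks replicate 1. Leaving out one array gave -0.0189 to 0.0760 for Insr, -0.0272 to 0.1447 for Irs2 and -0.1079 to 0.0335 for Irs1; the cause was not tested.

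The numbers of genes called over the whole table did move. For the trend it was 162 (29 higher), and 196 (65 higher) with quantile normalization, 337 without the dimmest 30%, 363 with trended and robust variance, 417 with array weights, 51 without the 12-week arrays, and 35 to 279 leaving out one array. For any difference between ages it was 33, and 13 with the replicate block, 69 without the dimmest 30%, 158 with trended and robust variance, 69 with array weights, and 5 to 50 leaving out one array. For 12 against 4 weeks it was 102 (25 higher), and 141 (54 higher) with quantile normalization, 66 with the replicate block, 210 without the dimmest 30%, 304 with trended and robust variance, 261 with array weights, and 13 to 188 leaving out one array, where a lone array of an age was assumed to vary like the other groups.

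With the replicate block the trend count was 161. Over all genes, equal replicate numbers gave no common pairing of deviations from the age mean. Of 10 pairs of ages 3 had a correlation of these deviations over 0.1, with a range of -0.34 to 0.16. These correlations do not test single genes. Replicate 2 was above replicate 1 at every age for Igf1r, Insr and Igfbp3, and below it at every age for Igfbp5. The share of all genes with such an order was not counted. With the block the adjusted p of the Igf1r trend was 0.28, against 0.42 without it.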

Other observations

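Patterns of other genes of the axis against the marker lists, compared after the values were seen, are given as descriptions over 10 arrays that share a tissue. By the root mean square difference of standardised levels, the microglial list was the closest of the 14 lists to Irs1 (0.60) and to Irs2 (0.57), and it was the closest to both without 6 weeks replicate 1 (0.60 and 0.55). On 12 weeks replicate 1 the microglial list summed to 13.20 (log2 of the summed linear levels), against 12.87 to 12.97 on the other 9 arrays, and Irs1 and Irs2 had their highest levels, 9.93 and 10.42, on that array. Closeness to the list without that array was not measured. Of 9 microglial genes 6 had their highest level there, foremost the complement gene C1qb, at 11.69, against 10.85 to 11.18 on the other 9 arrays. The fractalkine receptor gene Cx3cr1, at 9.92 against 9.77 to 10.01, and the purine receptor gene P2ry12, at 9.38 against 9.19 to 9.52, did not. Neither did Tmem119, at 9.43 against 9.23 to 9.56. The share of all genes with their highest level on 12 weeks replicate 1 was not counted. The fitted changes of the microglial list over age had 4 negative and 5 positive signs. Igfbp4 was closest to the oligodendrocyte list (0.69), Igf1r to the endothelial list (0.65) and Igfbp6 to the mural list (0.77). The part of these cells in the levels was not tested.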
